A study of Mus musculus with 162 samples.

Results

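The Hox genes described here are the 39 protein-coding Hox genes of the mouse, taken as every row of the count table whose symbol is Hox, a cluster letter from a to d and a number, and they are 39 of 53686 rows. RNA was sequenced from 9 organs of 18 C57BL/6J male mice of 8 to 9 weeks, 3 mice at each of 6 fasting times from 0 to 22 h (the others being 2, 8, 12 and 18 h), all killed early in the dark period. The organs were the olfactory bulb (OB), the brain (BRN, telencephalon and diencephalon), the cerebellum (CBL), the brainstem (BST, mesencephalon, pons and myelencephalon), the stomach (STM), the liver (LIV), interscapular brown fat (iBAT), perigonadal white fat (pgWAT) and posterior subcutaneous white fat (psWAT). Each library is 1 organ of 1 mouse. RNA of pgWAT and psWAT was extracted with a lipid tissue kit and that of the other organs with a different kit, so kit and organ cannot be told apart where white fat is compared with another organ.

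Hox genes code for homeodomain transcription factors that give body segments their identity along the axis from head to tail. They lie in 4 clusters, A to D, and genes with the same number in different clusters form a paralog group, numbered 1 to 13 from the end that is expressed nearest the head. The forebrain and midbrain form ahead of the region where Hox genes are expressed, the hindbrain forms within it, and adult fat depots are known to keep Hox profiles that differ with their place in the body.

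The libraries kept held 3045845 to 27801717 counts assigned to genes, with a median of 8735554. By organ, the lowest, median and highest totals were 8224940, 11630035 and 17704828 in the 18 OB libraries. The 16 BRN libraries had 3045845, 8113246 and 12108290, the 18 CBL libraries 6487419, 8449758 and 22071004, and the 18 BST libraries 6998492, 10540289 and 11776354. The 17 STM libraries had 6851903, 8735554 and 13769280, and the 18 LIV libraries 6959200, 8642328 and 12451777. The 17 iBAT libraries had 3156101, 9576245 and 27801717, the 18 pgWAT libraries 5784709, 8163341 and 19829510, and the 17 psWAT libraries 4099281, 6880700 and 9802381. Levels are given as counts scaled to a library total of 1e6 (CPM), and genes are set against each other only as CPM per kb of annotated exon. A gene with 0 counts in an organ could still be present at up to 3 counts over all its libraries, which is 0.0131 CPM in OB, the organ with the most counts among those with few Hox reads, and 0.0252 CPM in BRN. Such limits, and the 95% intervals of ratios below, cover counting error only, since reads from PCR are not independent molecules.

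The clusters lie on GRCm38 at chromosome 6:52155590-52260880 for A (11 genes, minus strand), 11:96194316-96368256 for B (10 genes, plus strand), 15:102921103-103036852 for C (9 genes, plus strand) and 2:74668310-74765142 for D (9 genes, plus strand). A read that falls on exons of 2 genes of the same strand is given to neither gene, and this touches some Hox genes. Only 37.7% of the exon bases of Hoxd3 and 47.7% of those of Hoxd4 are free of another gene on the same strand, so levels of these genes are lower limits. The other affected genes are Hoxa2 (85.0% free), Hoxd11 (89.2%), Hoxc10 (91.3%), Hoxa3 (92.0%), Hoxd10 (94.3%), Hoxc5 (94.6%) and Hoxa9 (98.5%).

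Each organ label was checked against marker genes, as the summed CPM of a fixed list. The 5 OB markers summed to 1221, 1328 and 1545 CPM (lowest, median and highest) in OB with Cdhr1 most abundant, and the 5 BRN markers to 147.5, 195.97 and 259.6 in BRN. The 5 CBL markers summed to 4600, 5208 and 5792 CPM in CBL, led by Cbln3, and the 5 BST markers to 372, 596 and 654 in BST, led by Slc6a5. The STM markers summed to 12192, 42283 and 88359 CPM in STM, led by Gkn1, the LIV markers to 65924, 86609 and 93465 in LIV, led by Alb, and the iBAT markers to 4231, 6508 and 12158 in iBAT, led by Ucp1. White fat markers, led by Fabp4, summed to 5734, 37488 and 62141 CPM in pgWAT and to 569, 5181 and 32535 in psWAT. In iBAT they summed to 8878, 11786 and 27698 CPM, so the psWAT median was below that of iBAT. All genes of each of these lists were detected in their own organ.

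Several libraries stood apart from others of their label. Markers of the epididymis, the duct beside the testis, were all detected in pgWAT (6 of 6) and summed to 25405 CPM in 22 h replicate 2, 21439 in 18 h replicate 3, 2899 in 2 h replicate 2 and 636 in 22 h replicate 3. In the other 14 pgWAT libraries they summed to between 1.29 and 37.9 CPM. The markers did not go together, as Crisp1 made up 2896 CPM in 2 h replicate 2, where the other 5 were at 0 to 1.93 CPM, within the range of the 14 libraries. In 18 h replicate 3 Lcn8 led with 11406 CPM and Crisp1 was at 436.3. Lymph node markers, all 5 detected, summed to 61.8, 1471 and 2665 CPM in psWAT, against at most 14.6 in pgWAT and 5.70 in iBAT, and 7 of the 17 psWAT libraries were under 1000. Skeletal muscle markers, all 5 detected and led by Acta1, ran from 15.4 to 30362 CPM in psWAT and from 34.3 to 9874 in iBAT. The psWAT library of 12 h replicate 3 held 3325 CPM of CBL markers, against at most 26.6 in the other psWAT libraries. Keratinocyte markers, all 5 detected and led by Krt10, summed to 236, 4460 and 9888 CPM in STM, with 2 of its 17 libraries under 1000 (22 h replicate 1 and 8 h replicate 2). One BST library, 0 h replicate 2, had the lowest BST marker sum (372 CPM) and the highest CBL marker sum of that organ (481 CPM). The part that any of these markers has in a Hox level was not tested, and fewer cells of a type and less RNA per cell cannot be told apart. Below, some results are given with and without the 4 pgWAT libraries, the 10 psWAT libraries at or above 1000 CPM and the 2 STM libraries. These sets were chosen after seeing the data.

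Hox RNA was near 0 in OB, BRN and CBL, low in LIV, and present in BST, STM and all 3 fat depots. The 39 genes together summed to 0, 0.190 and 0.349 CPM (lowest, median and highest library) in OB, to 0.112, 0.820 and 2.47 in CBL and to 0.282, 2.48 and 8.51 in BRN. In LIV the sum was 5.93, 8.25 and 10.4 CPM. These 4 organs lay below every library of the other 5. The sum was 136.98, 215.3 and 311.8 CPM in BST and 51.2, 100.8 and 301.6 in STM. Among fat depots it was 102.98, 143.5 and 179.5 CPM in iBAT, 87.6, 143.4 and 409.7 in psWAT and 258.2, 362.1 and 982 in pgWAT. The pgWAT range lay above that of iBAT and overlapped that of psWAT, while those of BST, STM, iBAT and psWAT overlapped one another. Genes with a median of at least 1 CPM numbered 0 in OB, BRN and CBL, 1 in LIV, 20 in BST, 17 in STM, 19 in iBAT, 23 in pgWAT and 24 in psWAT. Hoxc12 had 0 counts in all organs.

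**Figure D1:**
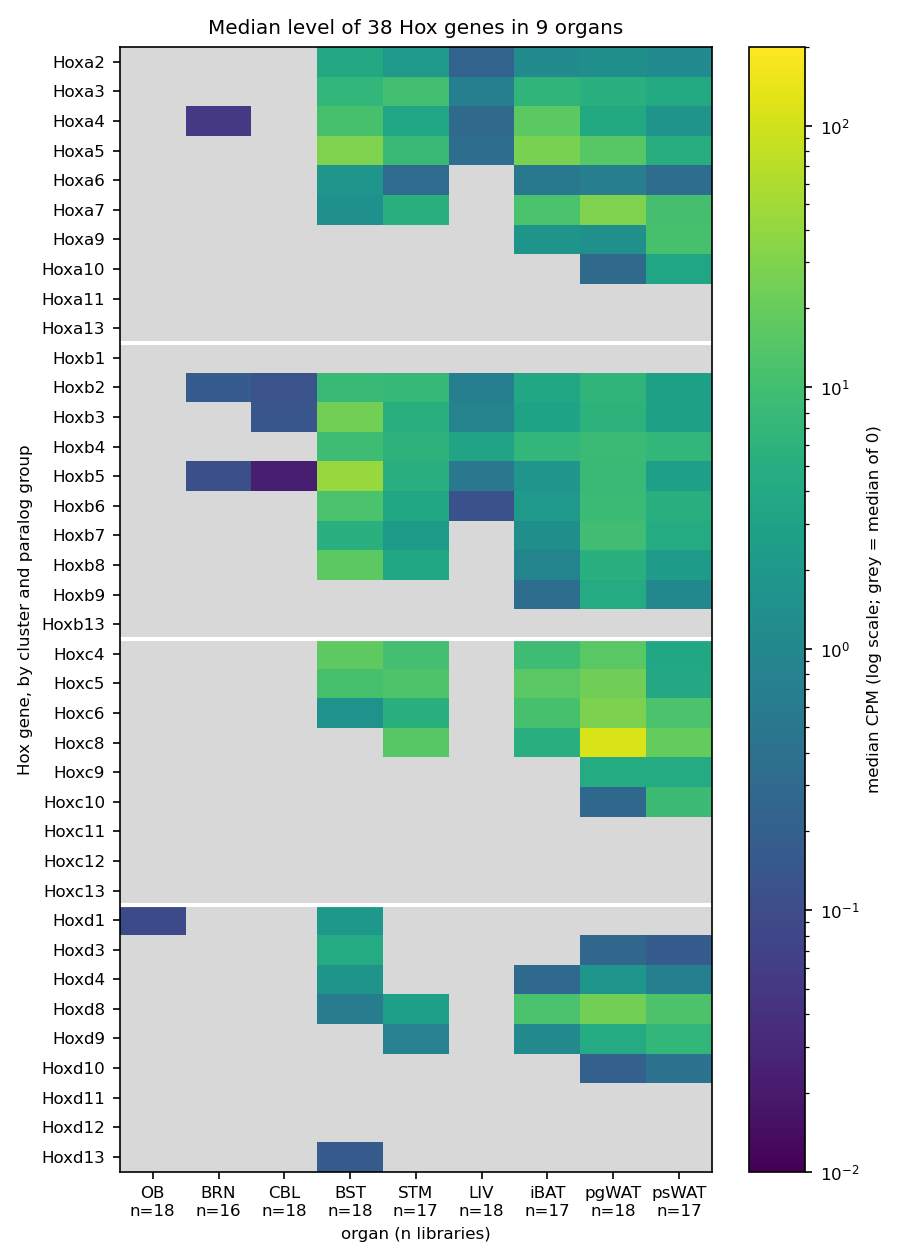
Median CPM of 38 of the Hox genes (rows, by cluster and number) in each of the 9 organs (columns), on a logarithmic colour scale, with grey where the median is 0. Colour is dense in BST, STM and the fat depots, while LIV has 1 gene with a median of at least 1 CPM and OB, BRN and CBL have 0.

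The few Hox reads of OB came from 6 genes, and those of BRN and CBL from more. In OB, 33 of 39 genes had 0 counts, and the 44 Hox counts of its 18 libraries were Hoxd1 24, Hoxd8 9, Hoxb4 6, Hoxa7 2, Hoxb5 2 and Hoxd3 1. Hoxd1, a group 1 gene known from sensory neurons, thus made up most of them. BRN had 262 Hox counts from 20 genes, and its highest library, 12 h replicate 3 with 8.51 CPM, also had the highest sum of BST markers in that organ (45.95 CPM, where the median was 15.7). BRN 18 h replicate 2 reached 4.92 CPM through Hoxa5 alone. CBL had counts of 21 genes, with Hoxb2 and Hoxb3 at 26 counts each.

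In BST the genes with the highest levels per kb belonged to groups 4, 5 and 8. Hoxb5 had 8.53, 15.8 and 21.4 CPM per kb (lowest, median and highest) and Hoxa5, a gene needed for breathing and for respiratory motor neurons, had 10.1, 15.6 and 26.2. Hoxa4 followed with 4.95, 6.91 and 8.84, Hoxc4 with 4.95, 6.56 and 8.20, and Hoxb8, whose loss causes excessive grooming in mice, with 1.00, 6.38 and 12.6. Hoxb5 and Hoxa5 overlapped each other, and in every library both lay above the medians of the other 3, which overlapped one another. Groups 4 to 8 held 77.1% to 86.7% of the summed CPM per kb in BST libraries (median 84.0%), groups 1 to 3 a median of 15.8% and groups 9 to 13 a median of 0.144%. Cluster B held the largest median share, 49.8%, followed by A with 34.3%, C with 12.4% and D with 3.47%.

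BST libraries differed more in Hoxb6, Hoxb7 and Hoxb8 than in Hoxb3. Hoxb3, a group 3 gene of the hindbrain, ranged from 16.9 to 29.5 CPM. Hoxb8 ranged from 2.64 CPM in 22 h replicate 2 to 33.3 in 8 h replicate 3, and Hoxb7 from 0.695 to 10.8 CPM in these same libraries. Hoxb6 also had its extremes there, 2.78 and 23.5 CPM. Libraries of 1 time lay far apart, as at 0 h, where Hoxb8 was 29.7, 19.8 and 5.26 CPM. The 5 libraries with least Hoxb8, at 2.64 to 7.61 CPM, had BST marker sums of 589.9 to 624.4 CPM, where the organ median was 596. Where the tail end of each dissected brainstem lay is not given in the labels and was not tested.

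STM had Hox genes of clusters A, B and C at levels close to each other. Hoxc8 had 0.649, 5.34 and 13.9 CPM per kb, Hoxc5 0.558, 4.31 and 13.5, and Hoxa5, which also patterns the stomach, 1.85, 4.26 and 13.5. Hoxc4 had 0.676, 3.96 and 11.7 and Hoxb4 1.00, 2.38 and 5.01. All 5 overlapped one another. The lowest Hoxc8 and Hoxc5 libraries were those with few keratinocyte markers, the cells that line the forestomach. At 22 h replicate 1, with 236 CPM of keratinocyte markers, Hoxc8 was 1.84 CPM and Hoxc5 1.72. In 8 h replicate 2, with 772 CPM of these markers, Hoxc8 was 2.09 CPM and Hoxc5 2.92, below the organ medians of 15.1 and 13.3. Clusters A, B and C held median shares of 29.7%, 29.4% and 36.5% of the summed CPM per kb, and groups 9 to 13 a median of 0.973%.

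LIV had 1 Hox gene at a median of at least 1 CPM, the group 4 gene Hoxb4, with 0.803, 1.28 and 2.19 CPM per kb. As CPM it was 2.06, 3.30 and 5.61. Other Hox genes of LIV had medians of at most 0.205 CPM per kb. When CPM was computed with normalised library sizes, 4 genes and not 1 reached a median of 1 in LIV.

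The 3 fat depots had different leading genes. In iBAT, which lies between the shoulder blades, Hoxa5 led with 9.96, 14.3 and 23.97 CPM per kb, followed by Hoxa4 with 7.34, 10.4 and 15.4. Both lay above every library of the next genes, Hoxc5 (3.18, 5.08 and 7.25), Hoxc6 (1.58, 4.70 and 7.08) and Hoxd8 (2.40, 4.28 and 7.30), and these 3 overlapped. In pgWAT, Hoxc8, known for patterning thoracic vertebrae and motor neurons, led with 6.45, 40.1 and 48.3 CPM per kb. Hoxc6 followed with 2.21, 11.9 and 22.6, then Hoxa7 (4.50, 10.3 and 17.6), Hoxd8 (6.41, 8.82 and 45.7) and Hoxa5 (4.19, 8.07 and 11.4), all of which overlapped its lowest library. Without the 4 epididymis libraries Hoxc8 was 95.4, 117.6 and 136.7 CPM and Hoxd8 17.6, 22.9 and 33.2, against 18.3, 113.6 and 136.7 and 17.6, 24.2 and 125.5 CPM with them. In psWAT, Hoxc8 also came first with 2.94, 6.88 and 36.04 CPM per kb, and it overlapped Hoxc6 (3.01, 4.93 and 19.2), Hoxd8 (2.53, 4.67 and 8.27), Hoxc10 (1.37, 4.60 and 15.6) and Hoxa7 (1.87, 3.68 and 14.0).

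The depots also differed in how far along the clusters their Hox RNA reached. Groups 9 to 13 held 0% to 3.74% of the summed CPM per kb in iBAT (median 1.56%), 2.39% to 23.3% in pgWAT (median 4.89%) and 18.5% to 37.3% in psWAT (median 23.6%). Without the 4 epididymis libraries the pgWAT range was 2.39% to 6.91%, below all psWAT libraries, and with them it overlapped psWAT. The 7 psWAT libraries with few lymph node markers had 23.01% to 29.2%. The paralog number weighted by CPM per kb averaged 5.19 ± 0.117 (SD, n = 17) in iBAT, 6.58 ± 0.235 (n = 18) in pgWAT and 6.94 ± 0.289 (n = 17) in psWAT, as against 4.77 ± 0.246 (n = 18) in BST and 5.19 ± 0.228 (n = 17) in STM. Cluster A held the largest median share in iBAT (54.1%), and cluster C in pgWAT (53.7%) and psWAT (43.2%).

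The comparison of BST with OB, BRN and CBL asks which Hox genes separate the brainstem from brain organs nearer the head and from the cerebellum, at all fasting times together. All 21 Hox genes that had enough counts to be tested were higher in BST in each of the 3 comparisons, and 18 were not tested. Since these genes had enough counts only through BST, they had to differ, and the count and the p values that follow are a description. The tests were edgeR quasi-likelihood F tests over 18496 genes with Benjamini-Hochberg adjustment, and a gene passed with an adjusted p under 0.05 and a log2 fold change beyond 1 in size. Of all genes tested, 13.7% passed as higher and 12.1% as lower in BST than in OB, 10.8% and 14.998% against BRN, and 12.99% and 9.17% against CBL. BST libraries are shared by the 3 comparisons. Groups did not overlap for 20 of the 21 genes against OB, 18 against BRN and 20 against CBL. How many of all genes did not overlap was not counted, so these numbers too are only a description.

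Group 3 genes pattern the hindbrain and the neck vertebrae. Hoxb3 was 16.9, 24.2 and 29.5 CPM in BST and 0 counts in OB, so it was at least 1867-fold higher (adjusted p = 1.39e-43, edgeR, 18 of 18 BST libraries above the OB median). In BRN Hoxb3 reached at most 0.486 CPM (log2 fold change 7.57 ± 0.23 SE, adjusted p = 7.41e-38) and in CBL at most 0.397 (7.36 ± 0.20, adjusted p = 1.18e-40), with 18 of 18 BST libraries above both medians. No BST library overlapped the other organs. Hoxd3 was 2.21, 4.51 and 7.03 CPM in BST, with 1 count in OB, 0 in BRN and 3 in CBL. Against OB the ratio of pooled CPM was 1063 (95% interval 190 to 42038, adjusted p = 3.68e-37), and against BRN it was at least 184-fold higher (adjusted p = 4.09e-32), in 18 of 18 BST libraries each.

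Genes of groups 4 and 5 pattern the lower hindbrain and the neck part of the spinal cord. Where OB had 0 counts the fold over it is a lower limit, so differences from OB are not ranked. Hoxb5 was 23.8, 43.9 and 59.5 CPM in BST, and in OB it had 2 counts, at most 0.0874 CPM in a library. The ratio of pooled CPM was 5016 (95% interval 1388 to 41425, adjusted p = 6.33e-52), with 18 of 18 BST libraries above the OB median. BRN had 0, 0.113 and 1.46 CPM of Hoxb5 (log2 fold change 7.05 ± 0.22, adjusted p = 2.10e-44, 18 of 18) and CBL 0, 0.0233 and 0.462 (8.91 ± 0.23, adjusted p = 2.69e-49, 18 of 18). All BST libraries lay far above these ranges. Hoxa5 was 19.03, 29.3 and 49.2 CPM in BST and 0 counts in OB, which is at least 2418-fold higher (adjusted p = 7.81e-34, 18 of 18). In BRN its lowest, median and highest levels were 0, 0 and 4.92 CPM (log2 fold change 7.32 ± 0.33, adjusted p = 2.46e-28, 18 of 18). The highest BRN value is 1 library, 18 h replicate 2, and the next was 0.245 CPM.

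Group 4 genes behaved in a like way at lower levels. Hoxb4 was 5.96, 9.40 and 13.3 CPM in BST and at most 0.174 in OB (log2 fold change 7.97 ± 0.30, adjusted p = 9.28e-39), 0.857 in BRN (6.07 ± 0.30, 2.61e-31) and 0.235 in CBL (7.73 ± 0.31, 1.04e-36), with 18 of 18 BST libraries above each median. Hoxc4 was 12.7, 16.8 and 21.1 CPM in BST, with 0 counts in OB (at least 1286-fold, adjusted p = 3.32e-34, 18 of 18). Hoxa4 was 7.89, 11.0 and 14.1 CPM in BST and also at 0 counts in OB (at least 830-fold, adjusted p = 4.35e-36, 18 of 18). Neither gene overlapped BRN, where Hoxc4 reached 1.46 CPM and Hoxa4 0.648, nor CBL, where they reached 0.385 and 0.257.

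Groups 6 to 8, which pattern the trunk part of the axis, included genes with wide ranges in BST. Hoxb6 was 2.78, 12.2 and 23.5 CPM in BST and 0 counts in OB (at least 964-fold, adjusted p = 1.41e-35, 18 of 18). In BRN it had 4 counts (log2 fold change 8.03 ± 0.34, adjusted p = 3.09e-30, 18 of 18) and in CBL 2 (ratio 1154, 95% interval 319 to 9533, adjusted p = 7.87e-34, 18 of 18). Hoxb8 was 2.64, 16.8 and 33.3 CPM in BST, with 0 counts in OB and in BRN and 1 in CBL. Hoxd8 was the exception among the 21 genes, with 0, 0.634 and 3.12 CPM in BST, overlapping all 3 other organs.

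Other genes that passed included Hoxa2, Hoxa6, Hoxa7, Hoxb2, Hoxb7, Hoxc5, Hoxc6, Hoxd1 and Hoxd4. Against OB, 15 of the 21 genes were at 0 counts in OB and 3 at 1 to 3 counts. Hoxd1, the gene with most OB counts, was 1.04, 1.93 and 3.12 CPM in BST and 0, 0.0913 and 0.247 in OB (log2 fold change 4.11 ± 0.29, adjusted p = 1.67e-22, 18 of 18). Its groups did not overlap. Of the 18 genes not tested, Hoxd13 had 34 counts over the 18 BST libraries, Hoxb9 25, Hoxd9 5 and Hoxc8 4, and Hoxa13, Hoxb1 and Hoxc13 had 1 each. Thus Hoxb1, a group 1 gene of the embryonic hindbrain, was not detected above 3 counts in adult BST, and 11 genes had 0 counts.

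All BST libraries had lane number 4 and all CBL libraries lane number 3, so lane and organ cannot be told apart in that comparison. Among libraries with lane number 4, all 21 genes also passed as higher in BST against the 10 OB libraries. In a comparison added after seeing the data, they passed against the 6 BRN libraries too. The log2 fold change of Hoxb3 against BRN was 7.20 among these libraries, and OB had 0 counts of it. Library names give a lane number but no run, so these libraries need not have shared a lane. Sequencing batch and organ are thus not separated here.

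Genes that act with Hox proteins or mark the regions without them were followed as fixed lists. Of 9 Hox cofactor genes (Pbx, Meis and Pknox, whose proteins bind DNA with Hox proteins), 0 were higher and 5 lower in BST than in OB, with a median log2 fold change of -1.03 (all genes -0.04). Meis2 was at a median of 153.4 CPM in BST and 853 in OB (-2.46 ± 0.12). Against BRN 2 were higher and 2 lower (median -0.19, all genes -0.04), with Meis1 at 22.9 and 4.43 CPM, and against CBL 1 was higher, Meis2 at 153.4 and 25.2 CPM (median -0.17, all genes 0.02). Of 14 homeobox genes of forebrain and midbrain, 5 were higher and 9 lower in BST than in OB (median -3.97), 2 higher and 10 lower than in BRN (median -4.39), and 3 higher and 3 lower than in CBL (median 0.17). Taken alone, BST had enough counts of 6 of these genes, OB of 10, BRN of 14 and CBL of 5. Genes that entered through the organ where they are high had to differ, so these counts are in part a description. En2, a gene of the midbrain and hindbrain border, had 2.61 CPM in BST and 114.5 in CBL.

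Among regulators that silence or open Hox chromatin, 21 of 22 were tested. None was higher in BST, while 5 were lower than in OB (median -0.68), 1 lower than in BRN (median -0.05) and 3 lower than in CBL (median -0.81). Pcgf2, a Polycomb subunit, was lower in all 3, at 10.7 CPM in BST against 39.1, 26.5 and 22.95. In the retinoic acid pathway, which switches on Hox genes in the embryo, 3 were higher and 4 lower of 12 tested against OB (median -0.57), 2 and 2 against BRN (median -0.38), and 1 and 0 against CBL (median 0.07). Aldh1a1, a retinoic acid enzyme, was at 400 CPM in BST, 67.3 in OB and 105.2 in BRN. Of the fat depot and trunk patterning list, 8 were tested, with 3 higher and 2 lower against OB (median -0.13), 4 and 3 against BRN (median 0.18), and 2 and 2 against CBL (median -0.25). The Hox neighbours Evx1 and Evx2, which mark spinal and hindbrain interneurons, were higher in BST in all 3 comparisons, at medians of 3.34 and 3.35 CPM, and the 3 Cdx genes of their list were not tested. Evx1 and Evx2 had enough counts only through BST, so they had to differ. Transcripts of the clusters that are not Hox coding genes are 47 rows, of which 6 were tested and 5 were higher in BST in each comparison. OB, BRN and CBL by themselves had enough counts of 1 each, so most of these had to differ too. Hoxb3os led with 8.32 CPM in BST, followed by Hoxaas2 with 5.33.

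The comparison of iBAT, psWAT and pgWAT asks how Hox levels differ among fat from the upper back, the lower flank and the gonad. Both white depots had more RNA of Hoxc8, Hoxc9, Hoxc10 and Hoxa10 than iBAT and less of Hoxa4 and Hoxa5. Hoxa10 was low in the 14 pgWAT libraries under 100 CPM of epididymis markers (0, 0.175 and 0.908 CPM), though with these alone it still passed against iBAT. psWAT was set apart from pgWAT by more Hoxc10 and Hoxa9. pgWAT was set apart from the other depots by the level of Hoxc8 and of the genes Hoxb5 to Hoxb9. Of these, Hoxb6 and Hoxb8 did not pass against psWAT without 4 pgWAT libraries over 100 CPM of epididymis markers. Hoxb7 did not pass once 10 psWAT libraries of many lymph node markers were left out as well. Hoxc9, Hoxc10 and Hoxa10 had enough counts to be tested only through white fat, and Hoxc10 only through psWAT. For these genes the differences from depots without enough counts are a description. The 3 comparisons share libraries and 1 fit over 18864 genes, in which 29 of the 39 Hox genes were tested. The other 10 (Hoxa13, Hoxb1, Hoxb13, Hoxc11, Hoxc12, Hoxc13, Hoxd1, Hoxd11, Hoxd12 and Hoxd13) had too few counts.

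**Figure D2:**
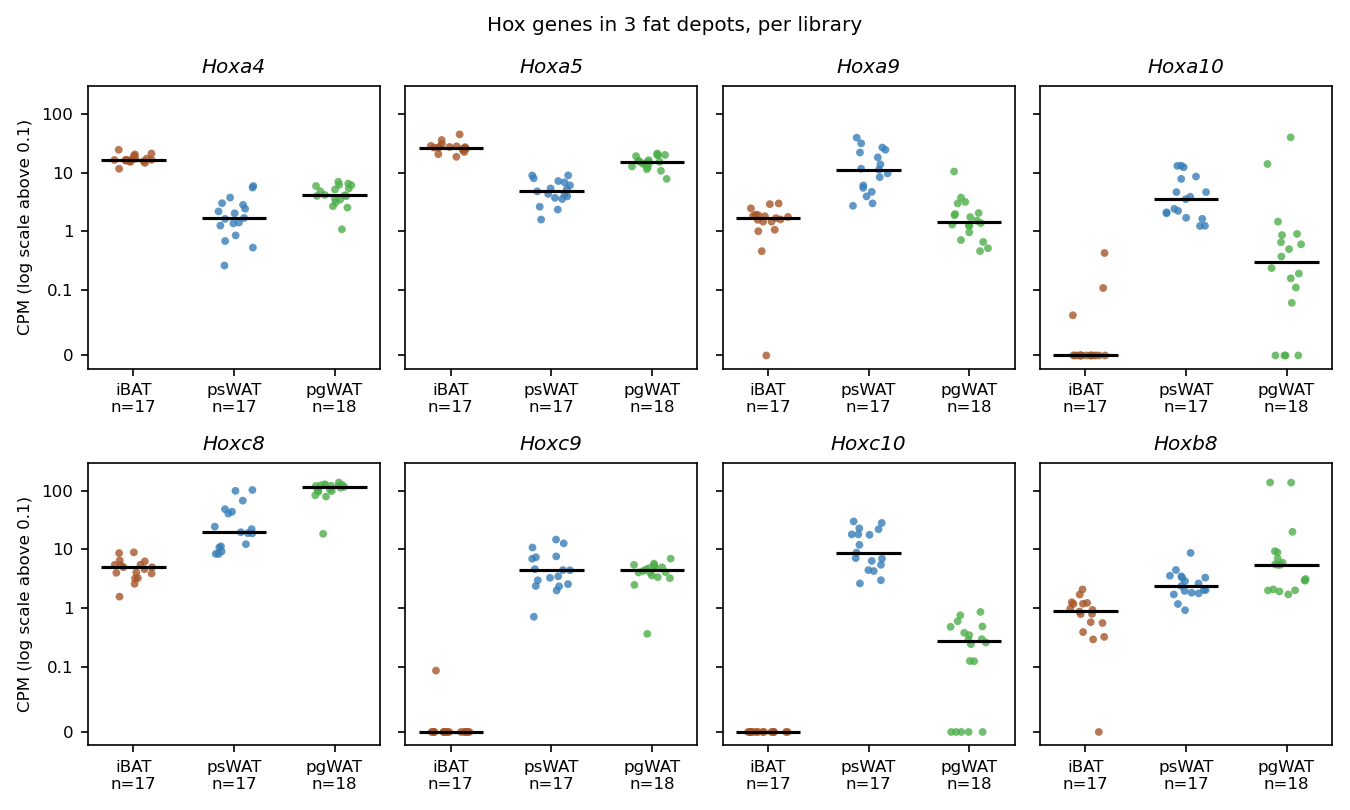
CPM of 8 Hox genes in each library of iBAT (17), psWAT (17) and pgWAT (18), 1 point a library, with a black bar at the median, on an axis that is linear near 0 and logarithmic above. Hoxa4 and Hoxa5 are highest in iBAT, Hoxc10 in psWAT and Hoxc8 in pgWAT.

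psWAT differed from iBAT in 15 of the 29 tested Hox genes, 7 higher and 8 lower. Of all genes tested, 31.8% passed as higher in psWAT and 19.1% as lower. Library scaling bears on this comparison more than on others. Scaling by total counts in place of TMM (edgeR's trimmed mean of M values) moved the median log2 fold change of all genes from 0.28 to 1.12 and the share of passing genes that were higher from 62.5% to 86.6%. Under it 13 Hox genes were higher and 3 lower. The genes that no longer passed included Hoxa3, Hoxa6, Hoxb3 and Hoxc4, all still below 0 in log2 fold change, and Hoxb6, Hoxb7, Hoxb8, Hoxb9, Hoxd3 and Hoxd4 passed as higher. With DESeq2 Hoxb3 did not pass and Hoxb7 did.

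The 7 genes higher in psWAT have numbers from 8 to 10, which stand for thoracic and lumbar levels, but Hoxb8, Hoxb9 and Hoxd8 were tested and did not pass. Hoxc10, a gene of lumbar motor neurons, was 2.62, 8.77 and 29.8 CPM in psWAT and 0 counts in iBAT, so at least 792-fold higher (adjusted p = 5.20e-15, 17 of 17 psWAT libraries above the iBAT median). Hoxc9 was 0.708, 4.39 and 14.6 CPM in psWAT and had 1 count in iBAT, a ratio of 1012 (95% interval 181 to 40039, adjusted p = 1.92e-20, 17 of 17). Hoxa10 was 1.24, 3.55 and 13.2 CPM in psWAT and 0, 0 and 0.430 in iBAT (log2 fold change 6.30 ± 0.97, adjusted p = 9.36e-08, 17 of 17). For these 3 genes the depots did not overlap. Hoxa9, also active in blood progenitors, was 2.74, 11.3 and 39.6 CPM in psWAT and 0, 1.69 and 3.00 in iBAT (2.29 ± 0.38, adjusted p = 3.23e-07, 17 of 17). Hoxc8 was 8.32, 19.5 and 102.1 CPM in psWAT and 1.56, 4.93 and 8.87 in iBAT (1.96 ± 0.31, adjusted p = 1.39e-07, 17 of 17). For both, the lowest psWAT libraries overlapped the highest of iBAT. Hoxd9 (2.04, 7.03 and 11.4 against 0, 1.12 and 5.45 CPM) passed with 1.42 ± 0.36 (adjusted p = 4.52e-04, 17 of 17). Hoxd10 was 0, 0.440 and 2.098 CPM in psWAT and 0 counts in iBAT, at least 42.2-fold higher (adjusted p = 3.18e-05, 14 of 17). Hoxa10, Hoxc9, Hoxc10 and Hoxd10 reached the limit for testing, 1.22 CPM, in no iBAT library, so they entered through white fat and their p values are a description.

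Genes lower in psWAT had paralog numbers of at most 6, but Hoxa2, Hoxb2, Hoxb4, Hoxb5, Hoxb6, Hoxc6, Hoxd3 and Hoxd4 were tested and did not pass. With the mouse as a block Hoxa2 also passed as lower, at a log2 fold change of -1.08. Hoxd3 (1.86), Hoxb7 (1.00) and Hoxa11 (2.23) then passed as higher, and their numbers lie outside 8 to 10. Hoxa5 was 1.60, 4.82 and 9.04 CPM in psWAT and 18.7, 26.8 and 45.0 in iBAT (log2 fold change -3.26 ± 0.18, adjusted p = 8.58e-23, 17 of 17 psWAT libraries below the iBAT median). Hoxa4 was 0.263, 1.70 and 5.94 CPM in psWAT and 11.7, 16.6 and 24.6 in iBAT (-3.80 ± 0.27, adjusted p = 2.75e-18, 17 of 17). The depots did not overlap for either gene. Hoxc5 was 1.70, 4.01 and 21.1 CPM against 9.82, 15.7 and 22.4 (-2.18 ± 0.28, adjusted p = 1.16e-09, 16 of 17). Hoxc4 was 1.87, 3.77 and 11.3 CPM against 2.22, 9.24 and 13.8 (-1.79 ± 0.22, adjusted p = 2.05e-10, 16 of 17). Hoxa3 was 1.41, 4.27 and 12.6 CPM against 3.45, 6.62 and 8.48 (-1.14 ± 0.20, adjusted p = 1.01e-06, 15 of 17). These 3 genes overlapped between depots. Hoxa6 (-1.41 ± 0.43, adjusted p = 0.00266, 13 of 17) and Hoxb3 (-1.01 ± 0.35, adjusted p = 0.00852, 10 of 17) also passed, with CPM ranges of 0 to 0.852 and 0.629 to 5.44 in psWAT and of 0 to 1.15 and 0 to 6.86 in iBAT.

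Libraries of psWAT differed in Hox levels and in marker content. Hoxc8 was between 19.5 and 102.1 CPM in the 7 libraries of few lymph node markers and between 8.32 and 43.6 in the other 10, which overlap. The libraries of 0 h replicate 1, 8 h replicate 1 and 8 h replicate 3, with 23790 CPM or more of white fat markers and at most 552 of lymph node markers, had 67.3, 98.7 and 102.1 CPM of Hoxc8 and 26.9, 39.6 and 31.7 of Hoxa9. The library of 22 h replicate 1, with 569 CPM of white fat and 2028 of lymph node markers, had 8.32 CPM of Hoxc8 and 3.01 of Hoxa9. Other libraries differed from these, as 12 h replicate 3 had few lymph node markers (102.02 CPM) and 19.5 CPM of Hoxc8, the organ median. Among the 7 libraries with few lymph node markers alone, Hoxc10 was 7.07, 17.9 and 29.8 CPM and Hoxa5 2.36, 6.10 and 9.04. With those 7 libraries in place of 17, 12 Hox genes passed, of which 11 are among the 15. Hoxa3, Hoxb3 and Hoxd10 were among those that no longer passed, Hoxb7 did, and the log2 fold changes were 3.07 for Hoxa9, 2.83 for Hoxc8, -1.40 for Hoxc5 and -2.93 for Hoxa5. Without 12 h replicate 3, the library with CBL markers, the psWAT median of Hoxc10 was 10.3 CPM and that of Hoxa5 5.05. Among the 10 psWAT and 7 iBAT libraries with lane number 5, 21 Hox genes passed, 8 higher and 13 lower, with -3.65 for Hoxa5 and 1.18 for Hoxa9. Hoxc10 passed there too, against 0 counts in iBAT. Equal lane numbers need not mean 1 run, so sequencing batch may still differ between these depots. No share of all genes is set beside the counts of 12 and 21, and these fits hold fewer libraries. Nothing particular to Hox genes is read from the 2 counts.

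pgWAT differed from iBAT in 16 Hox genes, 14 higher and 2 lower, where 24.8% of all genes tested were higher and 14.5% lower. Scaling by total counts moved the all-gene median from 0.07 to 0.73 and the share of passing genes that were higher from 63.1% to 84.6%, and DESeq2 moved that median by 0.12. Hoxc8 was 18.3, 113.6 and 136.7 CPM in pgWAT (log2 fold change 3.78 ± 0.33, adjusted p = 7.65e-15, 18 of 18 libraries above the iBAT median) and Hoxc9 0.363, 4.38 and 6.91 (ratio of pooled CPM 841, 95% interval 150 to 33259, adjusted p = 1.07e-19, 18 of 18). Both were above all iBAT libraries. Hoxb9, the last gene of the B cluster before a long gap, was 0.619, 4.49 and 65.5 CPM in pgWAT and 0, 0.360 and 0.731 in iBAT (4.00 ± 0.50, adjusted p = 9.17e-10, 18 of 18). Hoxb7 was 4.82, 9.64 and 127 CPM against 0, 1.41 and 5.04 (2.84 ± 0.36, adjusted p = 1.52e-09, 18 of 18). Hoxb8 was 1.70, 5.43 and 137.03 CPM against 0, 0.872 and 2.07 (3.75 ± 0.56, adjusted p = 6.09e-08, 18 of 18). The lowest pgWAT libraries overlapped iBAT for each of these 3. Hoxb6 (2.88, 8.63 and 178 against 0.585, 2.07 and 4.03 CPM) gave 2.82 ± 0.43 (adjusted p = 1.17e-07, 18 of 18) and Hoxb5 (2.43, 8.32 and 27.7 against 0, 1.76 and 3.39 CPM) 1.67 ± 0.29 (adjusted p = 1.81e-06, 18 of 18). Hoxa10 was 0, 0.307 and 40.1 CPM in pgWAT (5.74 ± 0.96, adjusted p = 8.21e-07, 14 of 18). The remaining higher genes were Hoxa11, Hoxc10, Hoxd3, Hoxd4, Hoxd9 and Hoxd10, of which Hoxa11, Hoxc10 and Hoxd10 were at 0 counts in iBAT. Of the 14, Hoxa10, Hoxa11, Hoxb9, Hoxc9, Hoxc10, Hoxd3, Hoxd4 and Hoxd10 reached 1.22 CPM, the limit for testing, in no iBAT library. They entered through white fat, so the count of 14 is in part a description.

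The 2 lower genes were those that lead in iBAT. Hoxa4 was 1.09, 4.16 and 7.03 CPM in pgWAT (log2 fold change -2.62 ± 0.25, adjusted p = 1.53e-13, 18 of 18 below the iBAT median), with no overlap. Hoxa5 was 7.87, 15.2 and 21.3 CPM (-1.51 ± 0.16, adjusted p = 9.11e-12, 18 of 18), its highest libraries overlapping the lowest of iBAT. With scaling by total counts Hoxa5 was at -0.84 and did not pass, while Hoxa7, Hoxb2, Hoxb3, Hoxc6 and Hoxd8 passed as higher, which makes 19 higher and 1 lower. DESeq2 added Hoxb2 and Hoxb3.

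The 4 pgWAT libraries over 100 CPM of epididymis markers included the highest values of several Hox genes. In 22 h replicate 2, which also had 12365 CPM of smooth muscle markers, Hoxa10, Hoxa11 and Hoxd13, genes that pattern the genital ducts, were at 40.1, 42.97 and 24.1 CPM, and Hoxb8 at 137.03. In 2 h replicate 2, with 3499 CPM of smooth muscle markers and Crisp1 as its only epididymis marker above the range of the 14 others, they were at 14.1, 15.3 and 4.30 CPM. The library of 18 h replicate 3 had 178 CPM of Hoxb6 and 136.5 of Hoxb8, but 0.605 of Hoxa10 and 0 of Hoxd13. Its epididymis marker sum was close to that of 22 h replicate 2, and its smooth muscle sum, 623 CPM, was not. At 22 h replicate 3, Hoxa10 was at 1.47, Hoxa11 at 1.47 and Hoxd13 at 0.590 CPM. In the other 14 libraries Hoxa10 was at most 0.908 CPM, Hoxa11 at most 0.332 and Hoxd13 at 0 counts. Without the 4 libraries 13 genes passed against iBAT, all among the 16, and Hoxa11, Hoxd3 and Hoxd9 did not. The log2 fold change was then 2.55 for Hoxa10, 1.54 for Hoxb8, 1.20 for Hoxb6, 1.94 for Hoxb7, 2.77 for Hoxb9, 1.30 for Hoxb5 and 3.97 for Hoxc8. Among libraries with lane number 5, 8 of them pgWAT, 17 passed, 14 higher and 3 lower, Hoxc8 at 4.22 and Hoxb8 at 2.26. These libraries need not be of 1 run. No share of all genes is set beside the counts of 13 and 17 from these smaller fits, so nothing particular to Hox genes is read from them.

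**Figure D3:**
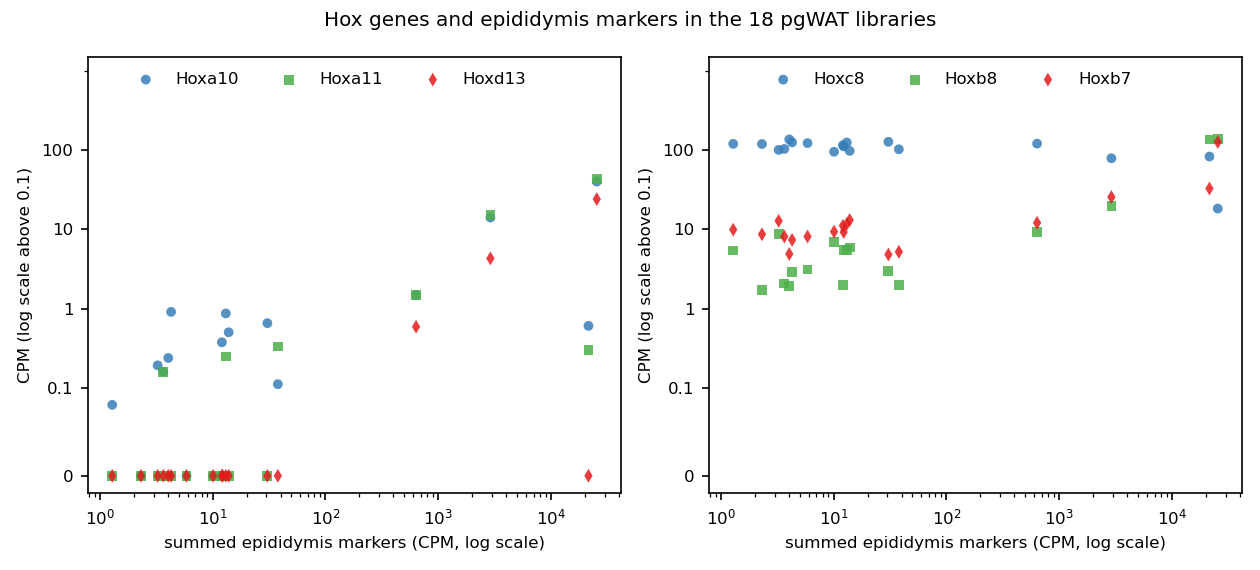
CPM of Hoxa10, Hoxa11 and Hoxd13 (left) and of Hoxc8, Hoxb8 and Hoxb7 (right) in each of the 18 pgWAT libraries against the summed CPM of 6 epididymis markers, with both axes logarithmic apart from a linear stretch near 0. Libraries over 100 CPM of the markers are the 4 named in the text, and Hoxc8 is lowest, at 18.3 CPM, in the one with most of them.

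psWAT differed from pgWAT in 22 Hox genes, 2 higher and 20 lower, where 25.1% of all genes tested were higher and 17.7% lower. Hoxc10, Hoxa6, Hoxa11 and Hoxd3 reached 1.22 CPM, the limit for testing, only in the depot where they were higher. The count of 22 is thus in part a description, and so is the p value of Hoxc10 that follows. Hoxc10 was 2.62, 8.77 and 29.8 CPM in psWAT and 0, 0.272 and 0.857 in pgWAT (log2 fold change 5.16 ± 0.47, adjusted p = 6.21e-12, 17 of 17 above the pgWAT median), with no overlap. Hoxa9 was 2.74, 11.3 and 39.6 CPM in psWAT and 0.464, 1.46 and 10.5 in pgWAT (2.64 ± 0.37, adjusted p = 1.62e-08, 17 of 17). The depots overlapped for Hoxa9, and its highest pgWAT value is in 22 h replicate 2, while the 14 pgWAT libraries under 100 CPM of epididymis markers were at most 3.18 CPM.

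Genes lower in psWAT than in pgWAT came from all 4 clusters. Hoxa5 gave -1.75 ± 0.17 (adjusted p = 3.83e-13, 17 of 17 below the pgWAT median), from CPM of 1.60, 4.82 and 9.04 against 7.87, 15.2 and 21.3. Hoxc4 (1.87, 3.77 and 11.3 against 2.30, 15.9 and 24.7 CPM) gave -1.92 ± 0.22 (adjusted p = 4.48e-11, 17 of 17) and Hoxc5 (1.70, 4.01 and 21.1 against 3.27, 23.6 and 38.5) -2.09 ± 0.28 (adjusted p = 4.33e-09, 17 of 17). These 3 overlapped between depots. Hoxc8 gave -1.82 ± 0.30 (adjusted p = 3.89e-07, 17 of 17) and Hoxd8, at 6.94, 12.8 and 22.7 against 17.6, 24.2 and 125.5 CPM, gave -1.55 ± 0.22 (adjusted p = 2.14e-08, 17 of 17). Among B genes, Hoxb9 was 0, 1.02 and 1.84 CPM in psWAT (-3.54 ± 0.49, adjusted p = 8.74e-09, 17 of 17), Hoxb5 1.03, 2.64 and 7.93 (-1.87 ± 0.29, adjusted p = 1.96e-07, 17 of 17) and Hoxb2 1.27, 2.77 and 7.64 (-1.87 ± 0.31, adjusted p = 4.50e-07, 15 of 17). All overlapped pgWAT. Others were Hoxa4, Hoxa6, Hoxa7, Hoxa11, Hoxb3, Hoxb6, Hoxb7, Hoxb8, Hoxc6, Hoxd3 and Hoxd4, from -1.02 to -5.48. The last is for Hoxa11, which did not pass without the libraries over 100 CPM of epididymis markers. Hoxa6, Hoxa11 and Hoxd3 entered through pgWAT, so their passing is a description.

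Scaling by total counts moved the all-gene median from 0.10 to 0.29, and Hoxc6 no longer passed. With DESeq2 Hoxa11 was at -4.08 (adjusted p = 0.0898) and did not pass. With the mouse as a block Hoxd3 was at -1.18 and did not pass, and Hoxa10 passed as higher at 2.97. Without the 4 epididymis libraries 20 genes passed, 4 higher and 16 lower. Hoxa10 (log2 fold change 3.76) and Hoxd10 then passed as higher in psWAT, and Hoxa11, Hoxb6, Hoxb8 and Hoxd3 did not pass. With only the 7 psWAT libraries of few lymph node markers 18 passed, and Hoxa4, Hoxa7 and Hoxc6 were among those that did not. With both sets left out 11 passed, with Hoxa9, Hoxa10 and Hoxc10 higher and Hoxa5, Hoxa6, Hoxb3, Hoxb5, Hoxb9, Hoxc4, Hoxc5 and Hoxc8 lower. Among libraries with lane number 5, which need not be of 1 run, 23 passed, 2 higher and 21 lower, with Hoxc10 at 4.37 and Hoxc8 at -2.96. No share of all genes is set beside the counts of the fits with fewer libraries. Nothing particular to Hox genes is read from these counts.

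Lists of related genes in fat showed these counts beside the Hox genes. Of 14 fat depot and trunk patterning genes tested, 4 were higher and 2 lower in psWAT than in iBAT (median 0.74, all genes 0.28), 6 and 5 in pgWAT than in iBAT (median -0.04, all genes 0.07), and 5 and 5 in psWAT than in pgWAT (median -0.22, all genes 0.10). Wt1, a gene of the mesothelium that covers visceral fat, had medians of 12.6 CPM in pgWAT and 0 in the other depots, and Tcf21 6.94 and 0. Tbx5 had medians of 5.18 CPM in iBAT, 0.659 in psWAT and 0 in pgWAT, and Tbx15, a marker of subcutaneous fat, 6.08, 15.5 and 0.153. Of 12 retinoic acid pathway genes, 7 were higher and 1 lower in psWAT than in iBAT (median 1.96), 8 and 2 in pgWAT than in iBAT (median 2.76), and 3 and 6 in psWAT than in pgWAT (median -0.40). The synthesis enzyme Aldh1a2 had 17.4 CPM in pgWAT, 1.95 in psWAT and 0.180 in iBAT, and the receptor Rarb 2.69, 3.16 and 16.6.

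Hox cofactors, 9 tested, gave 4 higher and 1 lower for psWAT against iBAT (median 0.63), 3 and 0 for pgWAT against iBAT (median 0.72), and 3 and 3 for psWAT against pgWAT (median 0.79). Meis3 was at 22.8 CPM in psWAT, 10.4 in pgWAT and 1.69 in iBAT. Of 21 chromatin regulators, 5 were higher and 0 lower in psWAT than in iBAT (median 0.38), 1 and 2 in pgWAT than in iBAT (median -0.44), and 8 and 0 in psWAT than in pgWAT (median 0.72). The Polycomb gene Cbx7 was at 211 CPM in psWAT, 29.1 in pgWAT and 23.2 in iBAT. Lymph node markers differed between the depots as well, with a median sum of 1471 CPM in psWAT and at most 14.6 in a library of pgWAT and 5.703 in one of iBAT. Their part in the psWAT list counts was not tested. Of the forebrain and midbrain list 3 of 14 were tested, with 3 and 0, 1 and 1, and 2 and 1 passing in the same order of comparisons (medians 2.33, -1.36 and 3.30), and Emx2 was at 2.20 CPM in pgWAT and 1.57 in psWAT. Taken alone, iBAT had enough counts of 0 genes of this list, pgWAT of 1 and psWAT of 2. They entered through white fat, so their counts are a description. Caudal and neighbour genes had too few counts to be tested. Of 10 other transcripts of the clusters, 1 was higher and 6 lower in psWAT than in iBAT (median -1.45), 3 and 1 in pgWAT than in iBAT (median -0.05), and 0 and 8 in psWAT than in pgWAT (median -1.76). Of these transcripts psWAT alone had enough counts of 4, iBAT of 8 and pgWAT of 10, so their counts are in part a description. Gm15050, an antisense transcript within the span of Hoxa3, was at 2.25 CPM in iBAT and 0.283 in psWAT.

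The comparison of STM with LIV sets 2 organs of the digestive tract side by side. Of 18 Hox genes tested, 17 were higher in STM and 0 lower, and 21 were not tested. By itself LIV had enough counts of only 2 genes, so most of the 18 entered through STM and had to differ, and the count and their p values are a description. Of the 17363 genes tested by edgeR, 32.4% were higher and 21.3% lower, and scaling by total counts moved the all-gene median from 0.12 to 0.58 and the share of passing genes that were higher from 60.3% to 72.6%. No lane held both organs, so lane and organ cannot be told apart. Groups did not overlap for 15 of the 17 genes, which is only a description, since non-overlap was not counted over all genes.

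In the C cluster, Hoxc5 was 1.72, 13.3 and 41.7 CPM in STM and 0, 0 and 0.254 in LIV (log2 fold change 8.46 ± 0.49, adjusted p = 1.16e-18, 17 of 17 STM libraries above the LIV median). Hoxc8 was 1.84, 15.1 and 39.3 CPM against 0, 0 and 0.238 (8.25 ± 0.52, adjusted p = 1.64e-17, 17 of 17), and Hoxc4 1.73, 10.2 and 30.0 against 0, 0 and 0.382 (6.83 ± 0.45, adjusted p = 4.32e-17, 17 of 17). None of the 3 overlapped LIV. In the A cluster, Hoxa5 was 3.47, 8.00 and 25.4 CPM against 0, 0.360 and 1.06 (4.04 ± 0.31, adjusted p = 4.06e-15, 17 of 17), and Hoxa7 1.98, 5.34 and 19.8 against 0, 0 and 0.238 (6.27 ± 0.43, adjusted p = 8.17e-17, 17 of 17). In the B cluster, Hoxb6 was 2.30, 3.70 and 9.32 CPM against 0, 0.123 and 0.334 (4.42 ± 0.31, adjusted p = 2.65e-16, 17 of 17). These ranges did not overlap. Hoxb2 was 3.57, 7.56 and 25.2 CPM against 0.321, 0.715 and 2.46 (3.05 ± 0.25, adjusted p = 1.45e-14, 17 of 17), and Hoxb8 1.49, 3.65 and 19.97 against 0, 0 and 0.223 (6.50 ± 0.52, adjusted p = 1.52e-14, 17 of 17). The other 9 were Hoxa2, Hoxa3, Hoxa4, Hoxb3, Hoxb5, Hoxb7, Hoxc6, Hoxd8 and Hoxd9. Hoxb4 was tested and did not pass the fold limit, at 2.57, 6.10 and 12.9 CPM in STM and 2.06, 3.30 and 5.61 in LIV (0.50 ± 0.19, adjusted p = 0.0138, 14 of 17).

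Without the 2 STM libraries of few keratinocyte markers the same 17 genes passed. Of the lists, 6 of 9 cofactors were higher in STM and 1 lower (median 2.22, all genes 0.12), 3 and 3 of 21 chromatin regulators (median 0.04), 4 and 3 of 11 retinoic acid genes (median 0.19), 11 and 1 of 12 patterning genes (median 3.77), 2 and 1 of 3 forebrain and midbrain genes (median 3.34) and 6 and 0 of 7 other cluster transcripts (median 2.03). LIV alone had enough counts of 5 patterning genes, 1 forebrain and midbrain gene and 2 other cluster transcripts, where STM had 12, 2 and 7. Those that entered through STM had to differ, so the counts of these 3 lists are in part a description. Meis2 was at 42.9 CPM in STM and 3.12 in LIV, and Barx1, a gene that specifies the stomach, at 52.9 and 0.118.

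Fasting times ask whether Hox RNA moved in an organ over 22 h without food. In STM 5 of 18 tested Hox genes passed across the 6 times, but 0 to 3 when 1 replicate was left out and 0 with lane as a term, and in the other organs none passed. The test was an edgeR quasi-likelihood F test over all times with Benjamini-Hochberg adjustment over all genes of the organ. Of all genes tested, 6.55% passed in STM, while the share was 15.4% for OB, 0.00597% for BRN, 2.99% for CBL and 0.107% for BST. It was 15.98% for LIV, 28.98% for iBAT, 0% for pgWAT and 0% for psWAT. No Hox gene had enough counts to be tested in OB, BRN or CBL.

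Each of the 5 STM genes had its highest median at 18 h, at the values of replicates 1 to 3 that follow. Hoxb8 (adjusted p = 0.00286, edgeR) was 1.98, 1.66 and 1.49 CPM at 0 h, 1.95, 1.67 and 2.19 at 2 h, 4.26, 2.71 and 4.22 at 8 h, 5.97 and 3.71 at 12 h, 19.97, 8.81 and 17.8 at 18 h, and 3.56, 5.95 and 3.65 at 22 h. All 3 libraries of 18 h lay above every library of the other times. Hoxa5 (adjusted p = 0.00508) was 3.57, 5.53 and 3.47 CPM at 0 h, 6.20, 8.86 and 5.43 at 2 h, 4.47, 6.36 and 6.29 at 8 h, 8.00 and 18.4 at 12 h, 23.03, 14.7 and 25.4 at 18 h, and 11.4, 13.1 and 15.5 at 22 h. All 6 libraries of 18 and 22 h lay above those of 0, 2 and 8 h. Hoxa3 (adjusted p = 0.0134) was 2.64, 8.41 and 2.23 CPM at 0 h, 9.22, 10.7 and 8.23 at 2 h, 6.07, 5.74 and 6.59 at 8 h, 9.79 and 11.1 at 12 h, 29.7, 13.2 and 26.1 at 18 h, and 17.3, 10.1 and 22.3 at 22 h. Its 18 h libraries overlapped those of 22 h. Hoxa7 (adjusted p = 0.00842) ran from 1.98 to 5.34 CPM in the libraries of 0 and 2 h and was 19.8, 11.8 and 15.5 at 18 h. Hoxb5 (adjusted p = 0.0215) ran from 2.85 to 6.03 CPM at 0 and 2 h and was 10.9, 7.43 and 15.4 at 18 h. For both, all 18 h libraries, 3 of 3, were above those of 0 and 2 h.

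Lane moved with time in STM. All libraries of 0 and 2 h were in lane 5, 8 h had 2 in lane 5 and 1 in lane 6, and those of 12, 18 and 22 h were in lane 6. With lane as a term of the edgeR fit 0 of 18 Hox genes passed (3 at an unadjusted p under 0.05), and 0 passed within lane 5 (1 at an unadjusted p under 0.05) or within lane 6 (4), where no gene at all passed in these 3 fits. For Hoxb8 the unadjusted p was 6.04e-04 with lane as a term, 0.0406 within lane 5 and 0.00348 within lane 6, with adjusted p of 0.922, 0.959 and 0.715. DESeq2 without the lane term passed 10 Hox genes over fasting times in STM, and of all genes it passed 2805 where edgeR passed 1067. Tissue content moved too, since the libraries with the highest Hox sums, 18 h replicate 1 (301 CPM), 18 h replicate 3 (302) and 22 h replicate 3 (260), had the lowest STM marker sums (12192, 12544 and 12844 CPM) and smooth muscle sums of 9952, 9882 and 13231 CPM, where the median was 5434. Keratinocyte sums were 1665, 6435 and 1471 CPM at 0 h and 7530, 6775 and 7511 at 18 h, with the highest, 9888, in 22 h replicate 3. The part of tissue content in the result was not tested.

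**Figure D4:**
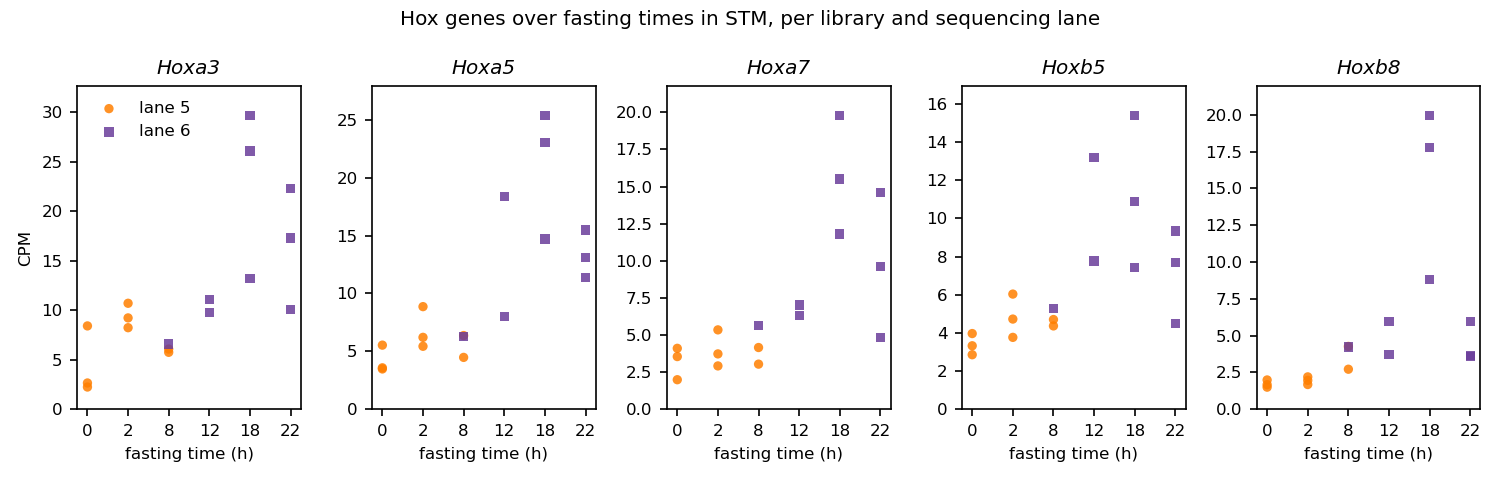
CPM of Hoxa3, Hoxa5, Hoxa7, Hoxb5 and Hoxb8 in each of the 17 STM libraries against hours of fasting, with circles for lane 5 and squares for lane 6. Points are highest at 18 h, and all libraries of 12, 18 and 22 h are in lane 6.

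Elsewhere the edgeR time test gave these results. In psWAT 0 of 23 Hox genes passed, with 12 at an unadjusted p under 0.05, and DESeq2 passed 12. Of all genes edgeR passed 0 of 16721 there. No share of all genes is set beside either count of 12, so nothing about Hox genes is read from them. Hoxc6 had the smallest p (3.45e-04, adjusted 0.109), at 21.1, 20.5 and 12.0 CPM at 0 h, 7.79, 11.6 and 7.47 at 2 h, 37.5, 26.3 and 46.3 at 8 h, 11.9, 10.2 and 10.8 at 12 h, 11.1, 7.24 and 13.0 at 18 h, and 10.6 and 16.1 at 22 h. All 3 libraries of 8 h lay above the others, and 2 of them had lymph node sums of 61.8 and 503 CPM. In pgWAT 0 of 27 passed, with 3 at an unadjusted p under 0.05, and DESeq2 passed 1, Hoxa10. Hoxa10 had the smallest p there (0.0117, adjusted 0.367), and its highest values were the 40.1 CPM of 22 h replicate 2 and the 14.1 of 2 h replicate 2, both among the 4 libraries over 100 CPM of epididymis markers. Without these 4 libraries edgeR passed 0.

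In BST 0 of 21 passed by edgeR and 0 by DESeq2, with 2 at an unadjusted p under 0.05. Hoxb4 had the smallest (0.0315, adjusted 0.402), with 9.68, 5.96 and 10.3 CPM at 0 h and 11.6, 9.95 and 13.3 at 8 h, which overlap. In iBAT 0 of 20 passed by either tool, with 0 at an unadjusted p under 0.05, the smallest being that of Hoxb6 (0.0510, adjusted 0.122), which ranged from 0.585 to 4.03 CPM. LIV had 0 of 2 by either tool, with 0 at an unadjusted p under 0.05, and Hoxb4 the smaller (0.198). Of all genes 28.98% passed in iBAT and 15.98% in LIV, and for LIV 2 Hox genes are too few to set against that share.

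Of the cofactors 3 of 9 tested passed in STM, 1 of 9 in OB, 1 of 8 in LIV and 1 of 8 in iBAT. The shares of all genes that passed, to be set beside each count, were 6.55% in STM, 15.4% in OB, 2.99% in CBL, 15.98% in LIV and 28.98% in iBAT. Lane and time were nearly the same split in OB and LIV as in STM, with 0 and 2 h in 1 lane and 12, 18 and 22 h in another. With lane as a term, no gene passed in STM, and 1176 of all genes passed in OB and 294 in LIV, where 2570 and 2241 did without it. The list counts have no lane term, and the part of lane in those of OB and LIV was not tested. Chromatin regulators, 21 tested in each organ, gave 4 in OB, 1 in CBL, 1 in STM, 3 in LIV and 5 in iBAT. Retinoic acid genes gave 1 of 12 in OB, 1 of 8 in LIV and 2 of 8 in iBAT, and the forebrain and midbrain list 2 of 10 in OB. Patterning genes gave 2 of 12 in STM and 2 of 10 in iBAT, and other cluster transcripts 1 of 1 in OB, 2 of 7 in STM and 1 of 8 in iBAT. The caudal and neighbour list gave 0, with 2 of its 5 genes tested, both in BST. All other list and organ pairs gave 0 by edgeR.

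Promoter sequences are given for 3 of the A cluster genes that passed between psWAT and iBAT, Hoxa5 (lower) and Hoxa9 and Hoxa10 (higher), which lie within 40 kb of each other. Hoxa3, Hoxa4 and Hoxa6 also passed as lower and are not shown, though Hoxa6 has a CCAAT match. The sequences are the 250 bases before the annotated start, from RefSeq on GRCm38.p6, minus strand, written 5′ to 3′. Of 39 Hox genes 22 were found in the table of 32851 promoters, with 24 starts. Capitals mark matches on either strand to the TATA box (TATAAA, which reads from the other strand TTTATA), the CCAAT box (from there ATTGG) or a form bound by Hox and Pbx proteins together, TGATNNAT (from there ATNNATCA, with N for any base), and no base lies in more than 1 motif. Hoxa10 has 2 listed starts. The regions are chr6:52204588-52204837 for Hoxa5, chr6:52227371-52227620 for Hoxa9, and chr6:52240855-52241104 and chr6:52234940-52235189 for starts 1 and 2 of Hoxa10.
Hoxa5: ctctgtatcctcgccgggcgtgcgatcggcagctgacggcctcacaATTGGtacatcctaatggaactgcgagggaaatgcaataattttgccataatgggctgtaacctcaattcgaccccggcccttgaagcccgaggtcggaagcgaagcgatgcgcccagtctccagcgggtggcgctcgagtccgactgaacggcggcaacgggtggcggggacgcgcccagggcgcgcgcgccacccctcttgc
Hoxa9: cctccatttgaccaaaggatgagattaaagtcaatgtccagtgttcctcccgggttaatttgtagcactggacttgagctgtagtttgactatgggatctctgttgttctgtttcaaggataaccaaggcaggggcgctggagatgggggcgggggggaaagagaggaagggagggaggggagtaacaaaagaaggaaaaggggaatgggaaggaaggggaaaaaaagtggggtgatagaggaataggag
Hoxa10 start 1: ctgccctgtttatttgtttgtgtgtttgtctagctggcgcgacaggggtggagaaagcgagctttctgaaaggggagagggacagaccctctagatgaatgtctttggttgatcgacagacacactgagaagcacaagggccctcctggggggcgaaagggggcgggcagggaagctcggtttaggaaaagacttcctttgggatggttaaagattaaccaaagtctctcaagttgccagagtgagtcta
Hoxa10 start 2: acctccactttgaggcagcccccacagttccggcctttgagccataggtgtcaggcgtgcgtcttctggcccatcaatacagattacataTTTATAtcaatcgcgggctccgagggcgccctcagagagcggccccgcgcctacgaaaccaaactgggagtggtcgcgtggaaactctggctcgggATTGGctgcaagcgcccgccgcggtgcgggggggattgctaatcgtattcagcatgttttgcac

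In these windows Hoxa5 has CCAAT on the other strand, at 204 to 200 bases before its start, and start 2 of Hoxa10 has TATAAA beginning 160 bases before the start and CCAAT 64 bases before it, both on the other strand. Hoxa9 and start 1 of Hoxa10 have no match. TATAAA is in 12.4% of all promoters of this length and in 4 of the 24 Hox promoters, CCAAT in 33.8% and 14, and TGATNNAT in 7.68% and 4 (Hoxa2, Hoxb1, Hoxb8 and Hoxd11). The Hoxa5 window holds 28 CpG, that of Hoxa9 3, and those of Hoxa10 7 and 20, where the median was 12.5 over Hox promoters and 6 over all. A match is a description of letters and not a site in use.

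The clusters also hold microRNA genes, whose mature forms are too short for these libraries and were not analysed here. Those of the miR-10 and miR-196 families are shown because each lies among Hox genes described above, with the seed (bases 2 to 8) in capitals and sequences from RefSeq on GRCm38.p6. Precursor rows had summed counts of 50 for Mir10a, 8 for Mir10b, 76 for Mir196a-1, 0 for Mir196a-2 and 0 for Mir196b over all libraries kept, and Mir615 of the C cluster, not shown, had 8.
mmu-miR-10a-5p: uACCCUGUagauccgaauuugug
mmu-miR-10b-5p: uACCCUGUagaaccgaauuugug
mmu-miR-196a-5p: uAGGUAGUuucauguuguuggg
mmu-miR-196b-5p: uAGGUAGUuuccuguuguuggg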

How the data were processed

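Gene counts were used as deposited by the authors, who aligned paired reads of stranded mRNA libraries to GRCm38.p5 with TopHat2 2.1.1 and counted uniquely mapped reads over Gencode M16 exons with HTSeq 0.9.1. The count table has 1 column per library and 53686 rows. Columns were tied to organ, fasting time, replicate and animal through the sample labels, and sequencing lane was read from the library names. These names give no run, and libraries of different organs can share both sample number and lane number. Equal lane numbers in different organs therefore need not mean the same lane of 1 run. Of 162 libraries 5 were left out before any test (BRN of animals 9 and 13, iBAT of animal 16, psWAT of animal 17 and STM of animal 12), because the sample table of the study lacks them, and all 162 were used in an alternative.

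CPM is the count over the total of the library, and per kb values use exon bases of Gencode M21. Genes were kept in a fit if at least 3 libraries reached the CPM that equals 10 counts in a library of median size. Counts were fitted in R 4.3.3 with edgeR 4.0.16 (TMM scaling, quasi-likelihood F test), with 1 fit for OB, BRN, CBL and BST, 1 for the fat depots, 1 for STM and LIV, and 1 per organ for fasting time. p was adjusted by Benjamini-Hochberg over all genes of the fit. Between organs a gene passed with an adjusted p under 0.05 and a log2 fold change beyond 1 in size, and over times with an adjusted p under 0.05. An SE was taken from the fitted log2 fold change and its F statistic. Where an organ had 0 counts the fold is a lower limit, at 3 counts, and at 1 to 3 counts it is a ratio of pooled CPM with an exact 95% interval.

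Fixed before the files were opened were the comparisons, lists and naming rule. Up to 5 Hox genes per organ were named by median CPM per kb, up to 8 per direction and comparison by adjusted p, every gene that changed over times or else the one with the smallest p, and up to 4 per list. Other Hox genes named were chosen after their values were seen. Results of 1 Hox gene and of some list and marker genes are not reported here, though counts and sums include them. The Hox genes and the lists were chosen with earlier results of these data known. Alternatives were DESeq2 1.42.0, total counts, no filter, no fold limit, fasting time, lane or mouse as a term, single lanes, and leaving out replicates or libraries. Those on epididymis, lymph node and keratinocyte markers, on lane 4 for BRN and BST, and on lanes 5 and 6 of STM were chosen after seeing the data.

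The animal number in the labels pairs organs of a mouse. Residuals of organs of 1 mouse had a mean correlation of 0.029 in the brain organs, 0.033 in fat and 0.029 in STM and LIV, against 0.000 in other pairs. Promoters and microRNAs come from RefSeq tables on GRCm38.p6.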

Additional observations from a re-analysis of the deposited data

How the results depend on the processing

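Counts of Hox genes that passed moved under alternatives in fat and over fasting times. Without a filter on low counts 25 genes passed for pgWAT against iBAT, where 16 did. Of those added, Hoxa13, Hoxb1, Hoxc11, Hoxd1, Hoxd11, Hoxd12 and Hoxd13 had been left out of the main fit by the filter. Hoxb2 and Hoxb3 had been tested in it and did not pass. With both sets of fat libraries left out 11 passed for psWAT against pgWAT, where 22 did. That fit holds fewer libraries, and no share of all genes is set beside its count. The cause of the drop was not tested. Over times, no filter gave 1 gene in BRN (Hoxa5, from 1 library) and 2 in BST, where 0 were tested or passed.

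In STM, where 5 genes passed, DESeq2 gave 10, leaving out 1 replicate 0 to 3, lane as a covariate 0, lane 5 alone 0 and lane 6 alone 0. In pgWAT DESeq2 gave 1. In psWAT DESeq2 gave 12, leaving out 1 replicate 0 to 6, keeping every library 1 (Hoxc6) and the 7 libraries with few lymph node markers 2, from a fit with 1 library at each of 12, 18 and 22 h and none at 2 h, from which nothing is read. The DESeq2 count of 12 in psWAT has no share of all genes beside it, and nothing is read from it. In LIV 4 genes reached a median of 1 under TMM-scaled CPM, where 1 did. Lane as a covariate could not be fitted in iBAT, and leaving out 4 libraries does not apply to STM and LIV.

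With the mouse as a block 19 Hox genes passed for psWAT against iBAT. Hoxa2 was added as lower, and Hoxa11, Hoxb7 and Hoxd3 as higher. For psWAT against pgWAT 22 passed, with Hoxd3 lost and Hoxa10 added. Replicate numbers do not pair animals of different times, and residuals that shared a number correlated at -0.071 in psWAT to 0.156 in iBAT. With that number as a block 5 genes passed in STM.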
